A study of Mus musculus with 28 samples.

Results

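The annexins are a family of proteins that bind acidic membrane phospholipids when calcium rises. Most share a core of repeated calcium-binding folds and differ in their N-termini, where partners such as the S100 proteins dock, and they serve in membrane repair, vesicle traffic and the organisation of the cell cortex. In the colon, *ANXA10* is used in pathology as a marker of serrated lesions, the precursor class in which *BRAF* mutations are common, and *Anxa1* is counted among the genes of the fetal-like or regenerating epithelium. The 10 family members described here, *Anxa1* to *Anxa7*, *Anxa10*, *Anxa11* and *Anxa13*, were taken by name from a table of raw RNA-seq counts, with no measured value in the rule. All 10 had a row among the 13519 genes of the table, which holds 12 annexin rows in all; *Anxa8* and *Anxa9* are the remaining 2.

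The counts came from 28 bulk RNA samples of mouse colon epithelium organoids on the C57BL/6N background, grown from 7 donor mice. Every donor carried *Villin*::CreERT2, a tamoxifen-inducible Cre driven by the promoter of an intestinal epithelial gene, and 2 floxed *Apc* alleles. AC organoids (1 donor, 2 cultures) carried nothing more, PAC organoids (2 donors, 4 cultures) added the heterozygous *Trp53* LSL-R172H allele, BAC organoids (2 donors, 4 cultures) the heterozygous *Braf* floxV600E allele, and BPAC organoids (2 donors, 4 cultures) both. Each culture was treated for 24 hours with 3.5 µM 4-hydroxytamoxifen (4-HT), which recombines the alleles, or with ethanol (EtOH), which leaves them unrecombined, and RNA was taken 3 days later. The EtOH sample of a culture is therefore its own control, and a 4-HT change always includes the loss of *Apc*. The cultures of a donor are numbered duplicate 1 and duplicate 2, and the medium held EGF, Wnt3a and R-spondin, so the controls were not free of growth signals. The paper describes 2 donor mice per genotype and 2 passages, so the duplicates may be passages of the same donor's organoids. For AC the labels name only 1 donor.

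Total counts ranged from 20577276 to 40068718 per sample. Levels are given as CPM, counts scaled to one library size after TMM normalization, and changes as log2 ratios of 4-HT to EtOH. A change passed the test at a Benjamini-Hochberg adjusted p below 0.01 in edgeR's quasi-likelihood test over all 13519 genes. The epithelial markers *Epcam*, *Cdh1* and *Krt8* were at 1512 to 3126, 970 to 2230 and 5825 to 11760 CPM in the 28 samples. Of 10 markers of fibroblasts, endothelium and immune cells only 4 had a row (*Vim*, *Pecam1*, *Cd3e* and *Cd68*), and their summed level was 5.63 to 9.99 CPM, with overlapping ranges in all groups. Differentiation moved with the treatment. The summed level of 8 colonocyte markers was 15474 to 25371 CPM with EtOH, 2980 to 7400 CPM with 4-HT in cultures with the *Braf* allele and 5526 to 10914 CPM with 4-HT in cultures without it. Summed over 4 crypt stem markers, the level was 102 to 228 CPM with EtOH and 299 to 513 CPM with 4-HT. The sum of 6 goblet markers had medians of 3183 (EtOH) and 1504 CPM (4-HT) with the *Braf* allele, and of 2520 and 1884 CPM without it. In bulk samples fewer cells of a type cannot be told apart from less RNA per cell, and the part of these shifts in the annexin values was not tested.

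A pair of samples stood apart from their labels. The duplicate 1 4-HT samples of the 2 PAC donors, Col290 and Col313, both held *Xist* (25.2 and 22.0 CPM) together with Y-linked counts (55.0 and 53.5 CPM), whereas the other 26 samples held no more than 1 of the 2 above 5 CPM. Their counts were also closer to each other than any other pair of a group, with a chi-square per degree of freedom of 2.38 against 8.53 for the next pair. These samples were kept, and the PAC 4-HT changes of the annexins are given with and without the 2 cultures they belong to.

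Compared per kilobase of exon, which sets genes of different length on one scale, the annexins of the EtOH-treated organoids spanned nearly 3 orders of magnitude. *Anxa2*, the partner of S100A10 at the plasma membrane, was highest with 572 ± 103 CPM per kb (SD, n = 14). *Anxa1* with 218 ± 58.8 CPM per kb and *Anxa4* with 179 ± 18.1 CPM per kb followed, and their ranges overlapped. *Anxa3* with 93.2 ± 14.7 and *Anxa5* with 79.3 ± 9.01 CPM per kb overlapped as well. *Anxa7* (39.8 ± 7.64 CPM per kb) and *Anxa11* (19.6 ± 4.23 CPM per kb), both with long N-terminal tails, came next, and neither overlapped a neighbour in this order. *Anxa6*, the member with a doubled core, was low with 2.85 ± 0.609 CPM per kb. *Anxa10* (1.76 ± 0.713 CPM per kb) overlapped *Anxa6* above it and *Anxa13* below it. *Anxa13* had 0.725 ± 0.408 CPM per kb, and GENCODE annotates it as a processed transcript rather than a protein-coding gene. The lowest count was 35 for *Anxa10* and 5 for *Anxa13*, so both carry more counting error than the rest.

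**Figure D1:**
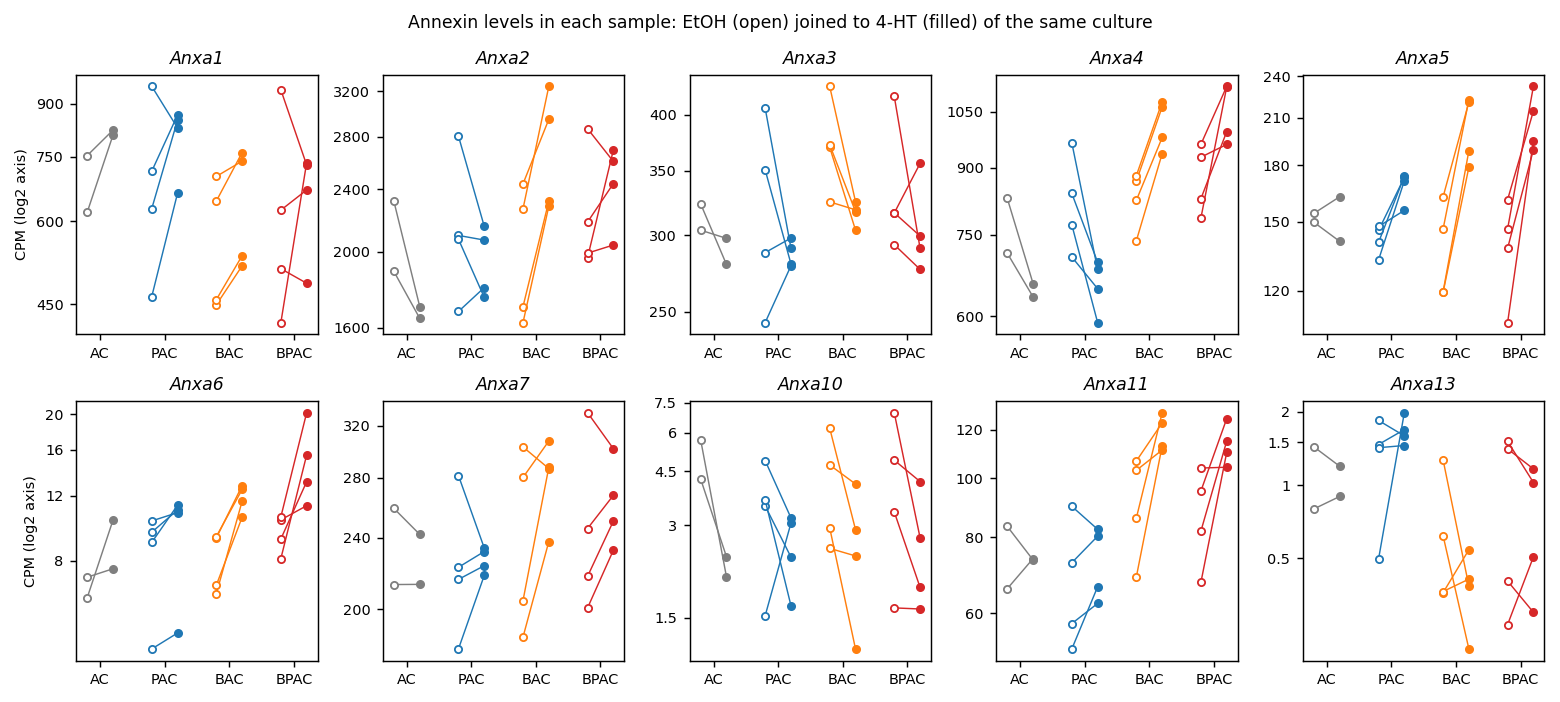
TMM-scaled CPM of the 10 annexins on log2 axes, 1 panel per gene, with the 4 genotypes along the x axis. Open points are EtOH samples, filled points 4-HT samples, and a line joins the samples of 1 culture; *Anxa4* lines slope down in all 6 AC and PAC cultures and up in all 8 BAC and BPAC cultures, and *Anxa10* lines slope down in 13 of 14.

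*Anxa10*, on chromosome 8 at 62057042 to 62123150 of GRCm38 (minus strand), was low in every organoid, and its groups overlapped with and without the *Braf* allele. In AC it stood at 5.70 and 4.25 CPM with EtOH (duplicates 1 and 2) and at 2.04 and 2.37 CPM with 4-HT. In PAC the EtOH samples held 4.87 and 3.47 CPM for Col290 and 1.52 and 3.63 CPM for Col313, and the 4-HT samples 3.17, 2.36, 3.05 and 1.64 CPM in the same order. Without the *Braf* allele, then, only Col313 duplicate 1 had a higher value with 4-HT, and its 4-HT sample is 1 of the 2 that stood apart. In BAC the EtOH samples held 2.52 and 2.94 CPM for Col286 and 4.71 and 6.21 CPM for Col291, and the 4-HT samples 2.38, 1.19, 4.09 and 2.91 CPM. In BPAC they held 3.32 and 1.62 CPM for Col287 and 4.89 and 6.97 CPM for Col312 with EtOH, and 1.89, 1.60, 4.16 and 2.73 CPM with 4-HT. All 8 *Braf* cultures thus had a lower *Anxa10* value with 4-HT after TMM scaling, while the ranges of the EtOH and 4-HT samples overlapped.

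The 4-HT value of *Anxa10* was below the EtOH value in 13 of 14 cultures, and in 12 of 12 without the duplicate 1 PAC cultures. The smallest downward log2 changes were −0.01 for Col287 duplicate 2 (BPAC) and −0.08 for Col286 duplicate 1 (BAC). Scaling by library size alone moved the median of all genes by 0.21 in BPAC and 0.17 in BAC, so these counts depend on the TMM scaling. The share of all genes with such a count was not computed. The fitted log2 changes were −1.17 ± 0.59 (SE) for AC, −0.40 ± 0.42 for PAC, −0.63 ± 0.41 for BAC and −0.69 ± 0.41 for BPAC. None passed the test, with edgeR adjusted p values of 0.18, 0.48, 0.20 and 0.16. The sizes differed between the duplicates, none of them past the threshold. In duplicate 1 alone they were −1.50 for AC, −0.05 for PAC, −0.15 for BAC and −0.46 for BPAC, and in duplicate 2 alone −0.84, −0.83, −1.17 and −0.98. Without both duplicate 1 cultures the PAC value was −0.83 ± 0.59 (adjusted p = 0.40). Between cultures with and without the *Braf* allele the *Anxa10* change differed by 0.12 on the log2 scale (with minus without), with a 95% interval of −0.78 to 1.03, so a difference of 1 on this scale would lie just inside what this spread allows. Its difference with the *Trp53* allele was 0.36 (95% interval −0.55 to 1.27). Among the 4-HT samples alone, *Anxa10* ranged from 1.19 to 4.16 CPM (median 2.56) with the *Braf* allele and from 1.64 to 3.17 CPM (median 2.37) without it.

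The region upstream of *Anxa10* is shown because *Anxa10* had the lowest mean 4-HT change of the 10 members, and AP-1 is a factor family that acts downstream of ERK signalling. RefSeq promoter sequences of GRCm38.p6, 250 bases before to 50 after a start, were matched for 7 of the 10 members in 9 entries. They were searched on both strands for the letters TGANTCA (AP-1), CCGGAA (ETS), CTTTGAT (TCF/LEF) and CATTCC (TEAD). The 200 bases before the *Anxa10* start, chr8:62123194-62123393 on the minus strand, are 34.0% G or C, and the capitals mark the AP-1 letters, at −180 and −16.
Anxa10: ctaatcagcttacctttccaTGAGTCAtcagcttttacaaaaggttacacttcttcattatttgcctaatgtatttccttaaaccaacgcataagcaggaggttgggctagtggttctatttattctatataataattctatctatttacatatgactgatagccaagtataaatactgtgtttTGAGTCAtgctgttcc
Of 32851 promoter entries 7.81% hold the AP-1 letters at least once and 0.460% at least 2 times. The other matches were 1 of AP-1 in *Anxa2* (−95), 1 of ETS in *Anxa11* (−127) and 1 each of ETS (−155) and TEAD (−236) in *Anxa1*. The ETS letters occur in 14.9%, the TEAD letters in 14.7% and the TCF/LEF letters in 3.73% of entries, and TCF/LEF letters matched no member. A match is a run of letters and not a site shown to be bound.

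Set against the other family members, *Anxa10* was the low one. The change of *Anxa10* was compared in each culture with the median change of the 8 members other than *Anxa1* and *Anxa10*. It was below that median in 13 of 14 cultures, by 0.77 ± 0.75 on the log2 scale (mean, SD, n = 14). The gap was −1.06 in the 2 AC cultures, −0.34 in the 4 PAC cultures, −1.01 in the 4 BAC cultures and −0.81 in the 4 BPAC cultures. The genes with the *Anxa10* pattern most like it over the 28 samples, by Pearson's r of log2 CPM among the genes with a symbol, were *Fam32a* (0.67), *Gsta3* (0.67), *Cfap52* (0.65), *Cdipt* (0.64) and *1700018L02Rik* (0.64). With the other annexins its r ran from −0.24 (*Anxa11*) to 0.22 (*Anxa13*). The points of these correlations share donors and treatments.

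*Anxa1*, on chromosome 19 at 20373428 to 20390944 (minus strand), encodes the glucocorticoid-inducible annexin known for restraining inflammation. It was abundant in all groups, and its levels with and without the *Braf* allele overlapped. AC held 753 and 619 CPM with EtOH and 822 and 808 CPM with 4-HT. In PAC the values of Col290 and Col313 were 627, 462, 956 and 713 CPM with EtOH and 851, 661, 828 and 866 CPM with 4-HT. Only Col313 duplicate 1 was lower with 4-HT among these 6 cultures. In BAC the values of Col286 and Col291 were 700.2, 449, 643 and 457 CPM with EtOH and 738, 514, 760.5 and 532 CPM with 4-HT. In BPAC those of Col287 and Col312 were 944, 422, 623 and 509 CPM with EtOH and 728, 735, 668 and 484 CPM with 4-HT. The 2 duplicates of Col287 moved in opposite directions, by −0.37 and 0.80 on the log2 scale.

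The 4-HT value of *Anxa1* was above the EtOH value in 11 of 14 cultures. The fitted log2 changes were 0.25 ± 0.31 for AC, 0.22 ± 0.22 for PAC, 0.18 ± 0.22 for BAC and 0.07 ± 0.22 for BPAC (SE), and none passed the test, with adjusted p values of 0.65, 0.47, 0.52 and 0.82. Without both duplicate 1 cultures the PAC change was 0.38 ± 0.31 (adjusted p = 0.49). *Braf* and non-*Braf* genotypes differed in *Anxa1* change by −0.11 (95% interval −0.60 to 0.38), and those with and without the *Trp53* allele by −0.07 (95% interval −0.56 to 0.41). Against the median of the same 8 members, *Anxa1* was above in 6 of 6 cultures without the *Braf* allele, by 0.27 ± 0.13, and below in 7 of 8 cultures with it, by −0.14 ± 0.32 (mean, SD). Of these 8 members *Anxa2*, *Anxa4*, *Anxa5*, *Anxa6*, *Anxa7* and *Anxa11* had a *Braf* difference above 0, and *Anxa3* and *Anxa13* below it. The split therefore also holds the shift of the reference members and is not a change of *Anxa1* alone. The genes most like *Anxa1* over the 28 samples were *Arhgap40* (r = 0.78), *Slc35e4* (0.77), *Grpel2* (0.77), *Dnajb6* (0.74) and *2310034G01Rik* (0.73). Among annexins the highest r was with *Anxa7* (0.54) and *Anxa2* (0.42).

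*Anxa4* was lower with 4-HT in every culture without the *Braf* allele and higher in every culture with it. The gene, on chromosome 6 at 86736840 to 86793584 (minus strand), encodes an annexin of secretory epithelia that moves to membranes when calcium rises. AC held 828 and 713 CPM with EtOH and 656 and 633 CPM with 4-HT. In PAC, Col290 and Col313 held 839, 706, 964 and 770.5 CPM with EtOH and 696, 647, 682 and 590 CPM with 4-HT. Every culture without the *Braf* allele was thus lower with 4-HT, by 0.13 to 0.50 on the log2 scale after a prior count of 2. In BAC, Col286 and Col291 held 869, 824, 882 and 738 CPM with EtOH and 1063, 978, 1078 and 936 CPM with 4-HT. In BPAC, Col287 and Col312 held 927, 960.1, 785 and 828 CPM with EtOH and 960, 1125, 1123 and 994 CPM with 4-HT. Every culture with the *Braf* allele was higher with 4-HT, by 0.05 to 0.52. Only 0.17% of all genes were higher in all 8 and lower in all 6 of these cultures.

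The fitted changes of *Anxa4* were −0.26 ± 0.14 for AC, −0.33 ± 0.10 for PAC, 0.29 ± 0.10 for BAC and 0.26 ± 0.10 for BPAC (log2, SE). On their own none passed, with adjusted p values of 0.20, 0.0103, 0.013 and 0.023. The difference between the changes with and without the *Braf* allele, 0.57 ± 0.11 (95% interval 0.36 to 0.78), did (edgeR adjusted p = 0.00094). With the culture as a block, which compares the samples of the same culture, the changes in PAC (−0.32 ± 0.08, adjusted p = 0.0032), BAC (0.29 ± 0.08, 0.0039) and BPAC (0.26 ± 0.08, 0.0073) passed as well, and the *Braf* difference was 0.57 ± 0.09 (0.00028). Without both duplicate 1 PAC cultures the PAC change was −0.26 ± 0.13 (adjusted p = 0.22) and the *Braf* difference 0.53 ± 0.11 (0.0028), and with the block as well the PAC call was lost (−0.26 ± 0.11, 0.12) while the difference passed (0.53 ± 0.10, 0.0012). Summed over the cultures of a donor, the counts gave changes in PAC (adjusted p = 0.017), BAC (0.011) and BPAC (0.026) that did not pass, and a *Braf* difference that did (0.0058). The *Braf* difference was lost without duplicate 1 of the only AC donor, with 0.53 and an adjusted p of 0.018, and in duplicate 2 taken alone, with 0.48 and 0.12. Scaled by library size alone, which moved the median of all genes by 0.17 to 0.22 in the 4-HT contrasts, the direction without the allele was less uniform: 2 of the 6 cultures were then higher with 4-HT, with a range of −0.24 to 0.12, while the 8 *Braf* cultures ran from 0.28 to 0.67.

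**Figure D2:**
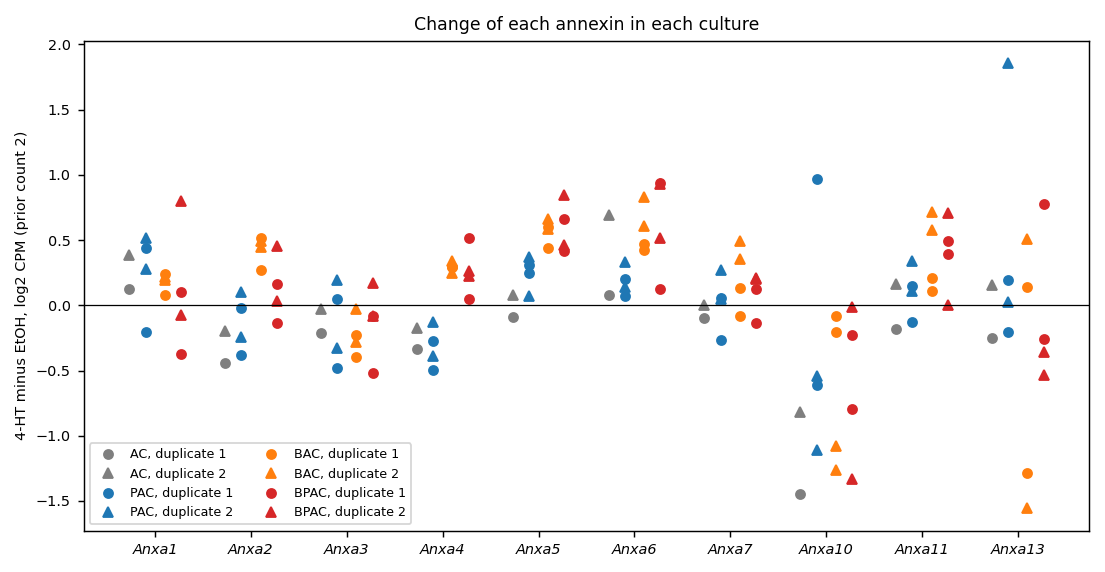
Log2 change from EtOH to 4-HT (log2 CPM with a prior count of 2) of each annexin in each of the 14 cultures, coloured by genotype, with circles for duplicate 1 and triangles for duplicate 2. The cultures with and without the Braf allele did not overlap for *Anxa4* (0.05 to 0.52 against −0.50 to −0.13) and *Anxa5* (0.41 to 0.85 against −0.09 to 0.37).

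*Anxa5* rose in both *Braf* genotypes, the only member to pass there in the fit of group means. The gene lies on chromosome 3 at 36448923 to 36475894 (minus strand), and its protein, known as a probe for exposed phosphatidylserine, forms lattices on damaged membranes. AC held 150 and 154 CPM with EtOH and 141 and 163 CPM with 4-HT. In PAC, Col290 and Col313 held 140.3, 133, 146 and 148 CPM with EtOH and 174, 171, 173 and 156 CPM with 4-HT. The samples of AC overlapped, while those of PAC did not. In BAC, Col286 and Col291 held 163, 120, 146 and 119 CPM with EtOH and 221, 189, 223 and 179 CPM with 4-HT. In BPAC, Col287 and Col312 held 161, 108, 147 and 138 CPM with EtOH and 215, 195, 232 and 190 CPM with 4-HT. In both *Braf* genotypes every 4-HT sample lay above every EtOH sample. The EtOH and 4-HT samples did not overlap for 32.1% of all genes in PAC, 52.1% in BAC and 44.9% in BPAC, so such a separation was common.

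The log2 change of *Anxa5* was 0.57 ± 0.11 in BAC (edgeR adjusted p = 0.00015) and 0.59 ± 0.11 in BPAC (9.1e-05), and both passed. In PAC it was 0.25 ± 0.11 (adjusted p = 0.081), or 0.22 ± 0.17 (0.45) without both duplicate 1 cultures, and in AC it was −0.0023 ± 0.16 (0.99). The difference with the *Braf* allele was 0.45 (95% interval 0.21 to 0.70) and did not pass (adjusted p = 0.016), but it did with the culture as a block (0.46 ± 0.08, adjusted p = 0.00097). With donor counts summed the BAC (edgeR adjusted p = 0.00012) and BPAC (7.2e-05) changes and the *Braf* difference (0.52, 0.0052) passed, and the PAC change (0.029) did not. Without donor Col291, which leaves BAC with 1 donor, the BAC change was 0.54 with an adjusted p of 0.012.

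The regions upstream of *Anxa4* and *Anxa5* are given as the members whose changes did not overlap between cultures with and without the *Braf* allele. They are 63.5% and 60.5% G or C and held none of the 4 sets of letters in the 300-base windows, so no capitals appear. The first is chr6:86793585-86793784 and the second chr3:36475895-36476094 (GRCm38.p6, RefSeq, both on the minus strand).
Anxa4: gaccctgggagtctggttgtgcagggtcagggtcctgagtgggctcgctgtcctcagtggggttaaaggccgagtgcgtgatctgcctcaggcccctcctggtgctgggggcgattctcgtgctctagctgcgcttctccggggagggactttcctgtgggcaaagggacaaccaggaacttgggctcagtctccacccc
Anxa5: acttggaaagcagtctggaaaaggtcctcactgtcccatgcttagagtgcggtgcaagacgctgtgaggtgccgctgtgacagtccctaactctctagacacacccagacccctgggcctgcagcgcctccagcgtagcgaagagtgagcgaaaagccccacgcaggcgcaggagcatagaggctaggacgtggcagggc

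The 4-HT changes of *Anxa2*, *Anxa6* and *Anxa11* were positive in 7, 8 and 8 of the 8 *Braf* cultures, and none passed the test in the fit of group means. *Anxa2* (chromosome 9, 69453620 to 69491795, plus strand) ranged with the *Braf* allele from 1624 to 2867 CPM with EtOH (median 2086) and from 2039 to 3246 CPM with 4-HT (median 2523), and without it from 1678 to 2806 CPM (median 2086) and from 1645 to 2153 CPM (median 1774). It was higher with 4-HT in 7 of 8 cultures with the allele and in 1 of 6 without. Its log2 change was −0.33 ± 0.23 for AC, −0.16 ± 0.16 for PAC, 0.43 ± 0.16 for BAC and 0.12 ± 0.16 for BPAC, with adjusted p values of 0.35, 0.48, 0.029 and 0.55. The *Braf* difference of *Anxa2* was 0.52 ± 0.18 (adjusted p = 0.057). With the culture as a block it was 0.51 ± 0.11 and passed (0.0032), as did the BAC change (0.43 ± 0.10, 0.0011). With donor counts summed the BAC change passed (adjusted p = 0.0099) and the *Braf* difference did not (0.025). The PAC change of *Anxa2* without both duplicate 1 cultures was −0.08 ± 0.22 (adjusted p = 0.85).

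*Anxa6* (chromosome 11, 54979108 to 55033445, minus strand), whose product binds membranes through a pair of cores, was higher with 4-HT in 14 of 14 cultures, by 0.07 to 0.94 on the log2 scale. The share of all genes that moved 1 way in every culture was not computed. With the *Braf* allele it ranged from 6.51 to 10.5 CPM with EtOH and from 10.5 to 20.2 CPM with 4-HT, and without it from 4.61 to 10.3 CPM and from 5.09 to 11.3 CPM. The log2 changes were 0.40 ± 0.33 for AC, 0.19 ± 0.23 for PAC, 0.57 ± 0.23 for BAC and 0.66 ± 0.23 for BPAC (adjusted p = 0.45, 0.54, 0.040 and 0.018). With the culture as a block the BAC (0.58 ± 0.14, adjusted p = 0.0016) and BPAC (0.63 ± 0.14, 0.00068) changes passed. The block, like the fit of group means, treats the cultures of a donor as separate, and with donor counts summed neither passed (adjusted p = 0.026 and 0.013). The PAC value was −0.02 once the duplicate 1 4-HT samples were left out and 0.28 ± 0.33 (adjusted p = 0.64) without both duplicate 1 cultures. Its *Braf* difference of 0.32 (95% interval −0.19 to 0.83) did not pass.

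*Anxa11* (chromosome 14, 25842156 to 25886804, plus strand), which tethers RNA granules to lysosomes, ranged with the *Braf* allele from 67.4 to 107 CPM with EtOH (median 90.6) and from 104 to 128 CPM with 4-HT (median 114). Without the allele it ranged from 52.4 to 89.9 CPM (median 69.2) and from 62.2 to 82.4 CPM (median 73.5). Its log2 changes were −0.02 ± 0.22 for AC, 0.10 ± 0.16 for PAC, 0.38 ± 0.16 for BAC and 0.38 ± 0.16 for BPAC, with adjusted p values of 0.97, 0.66, 0.039 and 0.037. Both *Braf* genotypes passed with the culture as a block (0.40 ± 0.11 in each, adjusted p = 0.0057 in BAC and 0.0056 in BPAC), and neither passed with donor counts summed (0.018 and 0.015). The PAC change of *Anxa11* without both duplicate 1 cultures was 0.22 ± 0.19 (adjusted p = 0.48). The strand setting of the counts is not given in the sources used here, so reads of *Anxa11* and its antisense neighbour *Anxa11os* cannot be told apart.

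*Anxa3*, *Anxa7* and *Anxa13* passed no 4-HT test. *Anxa3* (chromosome 5, 96793339 to 96845966, plus strand), also known from neutrophils, ranged from 244 to 428 CPM with EtOH and from 277 to 356 CPM with 4-HT, with log2 changes of −0.12 for AC, −0.17 for PAC, −0.24 for BAC and −0.14 for BPAC. *Anxa7* (chromosome 14, 20455260 to 20480133, minus strand), a promoter of membrane fusion, ranged from 181 to 331 CPM with EtOH and from 213 to 308 CPM with 4-HT, with log2 changes of −0.05, 0.01, 0.20 and 0.08 in the same order. *Anxa13* (chromosome 15, 58341471 to 58389244, minus strand), an annexin largely restricted to the intestinal epithelium, ranged from 0.268 to 1.84 CPM with EtOH and from 0.212 to 1.98 CPM with 4-HT, with log2 changes of −0.09, 0.36, −0.79 and −0.26. The adjusted p values of these 12 changes were 0.10 or above. Without both duplicate 1 PAC cultures the PAC changes were −0.09 for *Anxa3*, 0.16 for *Anxa7* and 0.86 for *Anxa13*, with adjusted p values of 0.78, 0.70 and 0.50. Scaled by library size alone, *Anxa3* was positive in AC, PAC and BPAC and *Anxa7* and *Anxa13* in AC. Their *Braf* differences of −0.05 (95% interval −0.32 to 0.23), 0.16 (−0.18 to 0.50) and −0.66 (−1.76 to 0.43) did not pass either.

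Counted over the family, the share of members past the threshold was not above that of all genes for any genotype. In AC, 0 of 10 annexins passed against 7.25% of all genes, and in PAC 0 of 10 against 23.4%. In BAC, 1 of 10 (*Anxa5*) passed, upward, against 41.9% of all genes in either direction and 20.3% upward. In BPAC, 1 of 10 (*Anxa5*) passed, upward, against 45.0% of all genes in either direction and 22.0% upward. The median log2 change of the members was −0.07 for AC, 0.05 for PAC, 0.25 for BAC and 0.10 for BPAC, beside 0.01, −0.03, −0.04 and −0.04 for all genes. At an unadjusted p below 0.05, 0 annexins in AC and 2 in PAC (*Anxa4* and *Anxa5*) passed by edgeR, against 30.8% and 45.6% of all genes. In PAC, limma-voom and the DESeq2 Wald test each called 1, and in AC neither called any.

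The culture block, which the pairing by donor and culture allows, raised the family's counts and those of all genes. Under it 0 of 10 members passed in AC (16.4% of all genes), 1 in PAC (*Anxa4*, 34.9%), 5 in BAC (*Anxa2*, *Anxa4*, *Anxa5*, *Anxa6* and *Anxa11*, 51.9%) and 4 in BPAC (*Anxa4*, *Anxa5*, *Anxa6* and *Anxa11*, 54.4%). Without both duplicate 1 PAC cultures the counts under the block were 0, 0, 5 and 4. Of the 10 calls, *Anxa4* in PAC was the one with a lower 4-HT level.

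The 4-HT change differed with the *Braf* allele for 1 of 10 annexins (*Anxa4*), against 6.61% of all genes, or 3.05% that differed upward. With the culture as a block 3 of 10 differed (*Anxa2*, *Anxa4* and *Anxa5*), against 14.0%. The median difference over the members was 0.24, beside −0.01 for all genes, and 7 of 10 were positive, beside 48.7% of all genes. The changes of the 8 cultures with and the 6 without the allele did not overlap for 2 of 10 members (*Anxa4* and *Anxa5*), against 9.36% of all genes. With the *Trp53* allele 0 of 10 annexins differed in 4-HT change, against 0.0148% of all genes in the group fit and 0.0148% with the block. There 0 annexins had an unadjusted p below 0.05 either, beside 1.04% of all genes.

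**Figure D3:**
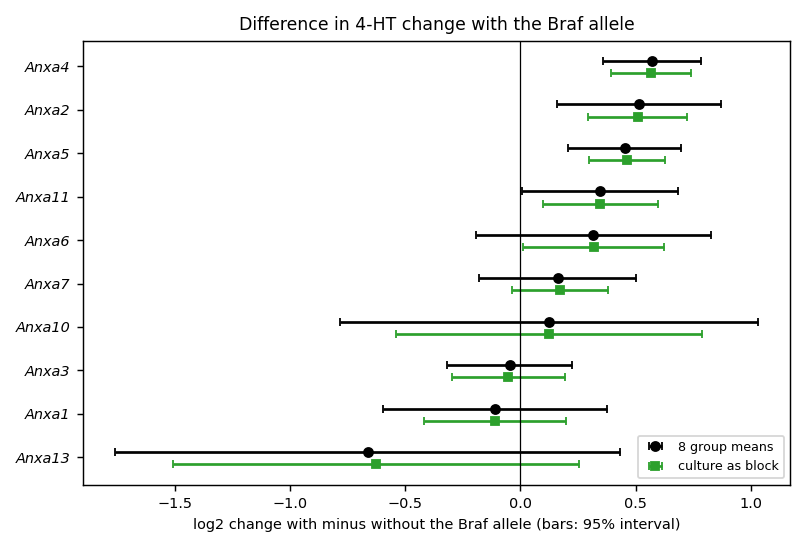
Difference in log2 4-HT change between cultures with and without the *Braf* allele for the 10 annexins, in the fit of 8 group means (black) and with the culture as a block (green), with bars of 1.96 SE (approximate 95% intervals). *Anxa4*, *Anxa2* and *Anxa5* lie highest, at 0.57, 0.52 and 0.45 in the group fit, and *Anxa13* lowest with the widest bar.

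Levels before and after recombination were compared directly. In the EtOH samples 0 of 10 annexins differed between organoids with and without the *Braf* allele, against 0.0296% of all genes, 1 member (*Anxa11*) had an unadjusted p below 0.05 by edgeR, against 17.2% of all genes, and limma-voom and DESeq2 called 0. No member's EtOH levels were separate between these groups, against 0.148% of all genes. In the 4-HT samples 5 of 10 differed, against 30.2% of all genes. *Anxa4* (0.67 ± 0.08, adjusted p = 5.2e-07), *Anxa11* (0.67 ± 0.12, 0.00015), *Anxa2* (0.51 ± 0.13, 0.0028) and *Anxa5* (0.36 ± 0.09, 0.0021) were higher with the allele, against 15.6% of all genes, and *Anxa13* (−1.30 ± 0.39, 0.0090) was lower, against 14.6%. The 4-HT levels of *Anxa4*, *Anxa5* and *Anxa11* did not overlap between the groups, as for 21.1% of all genes. *Anxa13* held as few as 9 counts in a 4-HT sample, and its call was lost when most single cultures were left out, for example with an adjusted p of 0.012 without Col313 duplicate 1. It was also lost without both duplicate 1 PAC cultures (0.021) and with donor counts summed (0.047). Without duplicate 1 of Col288 the calls of *Anxa2* (adjusted p = 0.016) and *Anxa5* (0.031) were lost too. With EtOH *Anxa11* stood at 0.32 (95% interval 0.08 to 0.56) and *Anxa13* at −0.64 (95% interval −1.41 to 0.14) on the same scale. The *Anxa13* EtOH levels depended on the duplicate. In duplicate 1 they were 0.27 to 1.41 CPM with the allele and 1.44 to 1.84 CPM without it. In duplicate 2 they overlapped, with 0.36 to 1.51 CPM and 0.50 to 1.42 CPM.

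The 2 annexins outside the list were read beside it. *Anxa9*, a member with altered calcium-binding sites, was higher with 4-HT in 8 of 8 *Braf* cultures, going from 1.13 to 1.76 CPM with EtOH to 2.61 to 4.24 CPM with 4-HT. Its log2 change was 1.37 ± 0.27 in BAC (adjusted p = 0.00017) and 1.06 ± 0.27 in BPAC (0.0018), and the *Braf* difference was 1.25 ± 0.31 (0.0075). The difference fell to 1.01 (adjusted p = 0.043) without both duplicate 1 PAC cultures, and was lost when most single cultures were left out. *Anxa8* was lower with 4-HT in 8 of 8 *Braf* cultures and in 3 of 6 others. Its log2 change was −0.49 ± 0.31 in BAC (adjusted p = 0.19) and −0.66 ± 0.31 in BPAC (0.074), and the *Braf* difference was −0.60 ± 0.35 (0.27). With the culture as a block the BPAC change passed (−0.56 ± 0.16, adjusted p = 0.0055), and the BAC change (0.017) and the *Braf* difference (0.020) did not. With donor counts summed the BPAC change of *Anxa8* did not pass (adjusted p = 0.13).

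Genes known to work with annexins were counted beside the family. Of 22 listed partners (S100 proteins, calpains, plasminogen system, membrane-repair and ESCRT proteins) 17 had a row. In BAC, where 41.9% of all genes passed, 1 partner rose (*Myof*, a ferlin of membrane repair, 0.80) and 4 fell (*Tgm2*, *Ahnak*, *Sri* and *Capn1*, −1.52, −1.04, −0.49 and −0.42). In BPAC, where 45.0% of all genes passed, 2 rose (*Myof*, 0.67, and the phospholipase gene *Pla2g4a*, 0.63) and 5 fell (*Tgm2*, *Ahnak*, *Capn2*, *Capn1* and *Sri*, −1.73, −1.18, −0.63, −0.55 and −0.50). In PAC, beside 23.4% of all genes, *Pdcd6ip* (−0.47) and *Sri* (−0.43) fell, and in AC 0 passed. Both PAC calls were lost without the duplicate 1 cultures (adjusted p = 0.20 for *Pdcd6ip* and 0.24 for *Sri*). These genes, other than *Tgm2*, were named after their values were seen. Of the partners 1 responded differently to 4-HT with the *Braf* allele, *Tgm2*, the tissue transglutaminase gene, by −1.63 ± 0.26 (edgeR adjusted p = 0.00022), beside 6.61% of all genes. The partners' median difference was −0.04, beside −0.01 for all genes.

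The genes that share a label with *Anxa1* or *Anxa10* were counted next. Of 16 fetal-like entries listed 14 had a row, and the other 2 are synonyms of genes among the 14. In BAC 3 of 14 rose (*Ly6c1*, *Il33* and *Ly6a*, 2.78, 1.91 and 1.12), beside 20.3% of all genes, and 0 fell. In BPAC 4 of 14 rose, beside 22.0% of all genes (*Ly6c1*, *Il33*, *Ly6a* and *Ly6e*, 2.73, 1.72, 1.03 and 0.88) and *Il1rn* fell (−0.47). In AC 0 passed, and in PAC *Il1rn* fell (−0.56), a call lost without the duplicate 1 cultures (adjusted p = 0.40). *Il33*, *Ly6e* and *Il1rn* were named after their values were seen. A larger upward 4-HT change with the *Braf* allele was found for 2, *Ly6c1* (2.08 ± 0.25, adjusted p = 9.7e-06) and *Ly6a*, which encodes Sca-1 (0.89 ± 0.13, 0.00011), beside 3.05% of all genes, and for 0 it was lower. The median difference of the 14 was −0.10. In the 4-HT samples *Ly6c1* (2.19) and *Ly6a* (0.63) were higher with the allele, beside 15.6% of all genes. *Clu* (−1.98), *Msln* (−1.24) and *Ccn1* (−0.89), named after their values were seen, were among those lower (log2 differences), beside 14.6% of all genes. Of 19 serrated and gastric genes 7 had a row, and 1 differed in 4-HT change with the *Braf* allele, beside 6.61% of all genes. It was *Agr2*, a disulfide isomerase of mucus-secreting cells, with a difference of 0.83 ± 0.20 (adjusted p = 0.0056). *Agr2* was also the 1 gene of these that rose in BAC (0.98) and in BPAC (1.30), beside 20.3% and 22.0% of all genes. In AC and PAC 0 passed, beside 7.25% and 23.4% of all genes. In the 4-HT samples *Agr2* (0.75) and *Vsig1* (1.21, adjusted p = 0.0041), the latter named after its value was seen, were higher with the allele, beside 15.6% of all genes. The 7 had a median difference of −0.38, and 12, among them *Muc5ac*, *Tff1*, *Tff2* and *Aqp5*, had no row in the table. The *Agr2* call was lost without many single cultures, for example with 0.75 and an adjusted p of 0.059 without duplicate 2 of Col288.

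The duplicate number moved with several annexins. In the EtOH samples *Anxa1*, *Anxa2*, *Anxa3*, *Anxa6* and *Anxa7* were higher in duplicate 1 than in duplicate 2 in all 7 donors, which holds for 11.9% of all genes. The median log2 difference was 0.44 for *Anxa1* (0.28 to 1.16), 0.44 for *Anxa2* (0.13 to 0.55), 0.38 for *Anxa7* (0.28 to 0.70), 0.37 for *Anxa6* (0.17 to 1.04) and 0.21 for *Anxa3* (0.09 to 0.40). *Anxa10* was higher in duplicate 1 in 3 of 7 donors and *Anxa13* in 4 of 7. In the 4-HT samples the direction was less uniform. *Anxa7* was higher in duplicate 1 in 7 of 7 donors, *Anxa2* in 6, *Anxa1* in 5, and *Anxa3* and *Anxa6* in 4. *Anxa10* was higher there in 6 of 7 (median log2 difference 0.48) and *Anxa13* in 5 of 7. The mean *Braf* difference of the culture changes was similar in both duplicates for *Anxa4* (0.66 in duplicate 1 and 0.50 in duplicate 2), *Anxa2* (0.49 and 0.47) and *Anxa5* (0.38 and 0.46). For *Anxa10* it was 0.04 and −0.10, and for *Anxa1* −0.11 in each. It differed between the duplicates for *Anxa13* (−0.07 and −1.17) and, outside the list, for *Anxa9* (1.74 and 0.78).

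**Figure D4:**
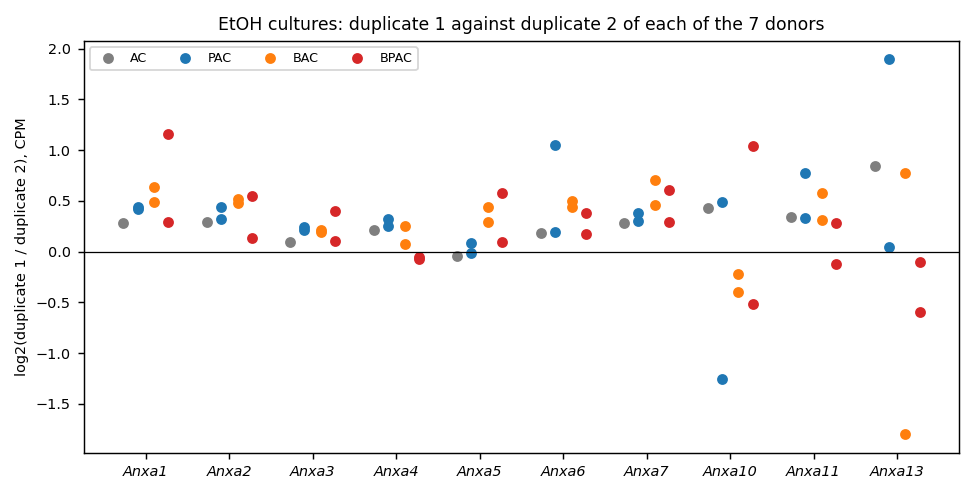
Log2 ratio of CPM in duplicate 1 to duplicate 2 among the EtOH samples, 1 point per donor (n = 7), coloured by genotype. All points of *Anxa1*, *Anxa2*, *Anxa3*, *Anxa6* and *Anxa7* lie above 0, while those of *Anxa10* and *Anxa13* lie on both sides.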

How the data were processed

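Per the labels, the authors isolated total RNA from the organoids, trimmed reads with Trimmomatic 0.39 and aligned them to GRCm38 with STAR 2.5.2b. What they deposited are unnormalized read counts, 1 whole number for each gene and sample. The counting program, annotation and strandedness are not given in the sources used here. The single 4-HT label of Col291 that lacks a number was read as duplicate 1. The organoid culture methods give another 4-HT dose (3 µM).

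The counts were scaled with TMM and fitted as 8 group means with edgeR 4.0.16 in R 4.3.3 by quasi-likelihood, over all 13519 genes. This fit takes the cultures of a donor as separate replicates and does not pair EtOH with 4-HT samples. The paper's threshold was kept. The alternatives included limma 3.58.1 (voom), DESeq2 1.42.0, other scalings and filters, and a block for the culture. EtOH and 4-HT samples of the same donor and number deviated together from their group means (r from 0.25 to 0.53 over 12 cultures). Samples with unlike numbers were not compared in this way, so the pairing by number is an assumption. Standard errors were computed from the F statistic, and 95% intervals as 1.96 SE. These intervals are approximate and narrower than the F test implies. The *Braf* difference of *Anxa11*, for example, had an interval of 0.007 to 0.68 beside an unadjusted edgeR p of 0.057. Culture changes used log2 CPM with a prior count of 2. The smallest total was 20577276 counts, and without molecular identifiers counting alone understates the error. Scripts were tested on simulated data. Positions and exon lengths come from GENCODE for the same build.

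The members and lists were chosen with earlier results of these data known, and the rule for named genes took all 10 annexins, the 5 most like *Anxa10* and *Anxa1*, and from each list up to 4 with the largest *Braf* difference past the threshold (*Tgm2*, *Ly6c1*, *Ly6a* and *Agr2*). *Anxa8*, *Anxa9* and the other list genes given with values fall outside this rule and were named after their values were seen. The values of 1 gene of the fetal-like list are not reported here.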

Additional observations from a re-analysis of the deposited data

Results flagged for a closer look

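*Anxa5* in the PAC 4-HT samples was flagged because 1 sample lay far from the rest, Col313 duplicate 2 with 156 CPM against 171 to 174 CPM in the other 3. *Anxa6* was flagged for the same reason in the same group, where Col290 duplicate 2 held 5.09 CPM against 10.8 to 11.3 CPM. The group holds the 2 duplicate 1 samples that resembled each other. Of 90 groups of 4 values tested in this way 2 were flagged, and chance flags about 1 in 20.

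*Anxa4* was flagged because its 4-HT change differed between genotypes by a test of the difference itself, by 0.57 on the log2 scale with the *Braf* allele.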

How the results depend on the processing

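The count of annexins past the threshold (0 of 10 in AC, for EtOH levels and for the *Trp53* difference) did not change under any of the alternatives run. In PAC it was 0, and 1 at an adjusted p of 0.05, with limma-voom, the DESeq2 test, DESeq2 size factors, library size alone, a mean of at least 5 CPM, the replicate block or the duplicate number as covariate, and 0 to 1 with single cultures or donors left out. In BAC it was 1, and 5 at 0.05, 5 with the replicate block, 4 with library size alone or the covariate, 3 with each genotype alone, 2 with DESeq2, its size factors, summed donors or without both PAC duplicate 1 cultures, and 0 to 3 with samples left out (0 without donor Col291). In BPAC it was 1, and 4 at 0.05, with library size alone or the replicate block, 3 with DESeq2 or the covariate, 2 in duplicate 1 alone, and 1 to 2 with samples left out. For the *Braf* difference it was 1, and 3 with the replicate block or the covariate, 2 at 0.05, with DESeq2, summed donors or duplicate 1 alone, 0 in duplicate 2 alone, and 0 to 1 with samples left out (0 without Col288 duplicate 1). For the 4-HT level it was 5, and 6 at 0.05, 4 with summed donors, a mean of at least 5 CPM, duplicate 1 alone or without both PAC duplicate 1 cultures, 2 in duplicate 2 alone, and 2 to 5 with samples left out.

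The 3 annexin 4-HT results that passed (*Anxa5* in BAC and BPAC, the *Braf* difference of *Anxa4*) kept their direction in all runs. Values that had not passed changed sign. Library size alone, which moved the median of all genes by 0.17 to 0.22 in the 4-HT contrasts, gave, in AC, 0.10 (*Anxa3*), 0.22 (*Anxa5*), 0.17 (*Anxa7*), 0.20 (*Anxa11*) and 0.13 (*Anxa13*), in PAC 0.069 (*Anxa2*) and 0.058 (*Anxa3*), and in BPAC 0.080 (*Anxa3*). The cause of the other changes was not tested. In duplicate 1 alone they were −0.11 (*Anxa7*) and −0.0012 (*Anxa13*) in PAC, and −0.18 (*Anxa1*), −0.011 (*Anxa2*) and −0.028 (*Anxa7*) in BPAC. In duplicate 2 alone they were 0.078 (*Anxa5*), 0.00067 (*Anxa7*), 0.16 (*Anxa11*) and 0.17 (*Anxa13*) in AC, 0.053 (*Anxa3*) in BPAC, 0.0055 (*Anxa3*) and −0.24 (*Anxa10*) for the *Braf* and 0.087 (*Anxa1*) for the *Trp53* difference. The covariate gave 0.0024 (*Anxa5* in AC). Without both PAC duplicate 1 4-HT samples, chosen after seeing the data, PAC gave −0.021 (*Anxa6*), −0.028 (*Anxa7*) and −0.084 (*Anxa11*), and without both cultures the *Trp53* difference of *Anxa1* was 0.0083, or 0.035 with the replicate block. That block without both cultures, also chosen after seeing the data, called 0 in PAC, 5 in BAC, 4 in BPAC and 3 for the *Braf* difference.

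With single cultures or donors left out, AC gave −0.089 to 0.078 (*Anxa5*), −0.096 to 0.00067 (*Anxa7*), −0.18 to 0.16 (*Anxa11*) and −0.26 to 0.17 (*Anxa13*). PAC gave −0.32 to 0.035 (*Anxa2*), −0.41 to 0.12 (*Anxa3*) and −0.12 to 0.16 (*Anxa7*). BPAC gave −0.14 to 0.28 (*Anxa1*), −0.25 to 0.0091 (*Anxa3*) and −0.41 to 0.26 (*Anxa13*). The *Braf* difference was −0.24 to 0.0061 (*Anxa1*), −0.19 to 0.094 (*Anxa3*) and −0.042 to 0.30 (*Anxa10*), and the *Trp53* difference of *Anxa1* was −0.18 to 0.056. The replicate block cannot test levels, since a culture has 1 genotype, and AC has 1 donor, so leaving that donor out could not be run. A lone remaining donor is assumed to vary like the other groups. Low counts limit *Anxa10* and *Anxa13*.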
